A study of Mus musculus with 8 samples.

Results

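The heat shock chaperones described here are 10 mouse genes whose proteins fold other proteins in the cytosol and in mitochondria. They were taken as a named list: Hsp90aa1, Hsp90ab1, Hspa8, Hspa4, Hsph1, Dnaja1, Dnajb1, Hspd1, Hspe1 and Bag3. All 10 had a row among the 12404 genes of the deposited count table, and all 10 passed the filter on low counts that left 8645 genes for testing. In the table of m6A peaks, 15 of the 3331 peaks were assigned to 8 of them, and no listed peak to Dnajb1 or Hspe1.

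Chaperones of the HSP70 class bind short hydrophobic stretches of unfolded proteins, J-domain proteins bring them their clients and trigger ATP hydrolysis, and exchange factors then release ADP. Some clients pass on to HSP90, which completes the maturation of kinases and steroid hormone receptors, and others fold inside the barrel of a chaperonin. Many of these genes are switched on by the transcription factor HSF1 when proteins unfold, through heat shock elements, which are alternating inverted copies of a GAA unit. HSP90 and HSP70 are abundant in unstressed cultured cells as well.

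The cells were TM3, an established mouse line derived from Leydig cells, which make testosterone in the testis. One condition was exposure to bisphenol A (BPA), a plastics chemical with estrogen-like activity, and the other was normal TM3, and neither dose nor duration of the exposure is stated in the labels used here. RNA-seq and m6A immunoprecipitation (MeRIP-seq, in which an antibody enriches RNA fragments carrying N6-methyladenosine) had 2 libraries per condition. The sample titles name no input library, and the RNA-seq was taken to be the MeRIP input. Both conditions use a single cell line. The labels do not say whether replicates were separate cultures, so the spread behind each p-value is that between these libraries and may be only technical.

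The RNA-seq libraries held 8813870 and 6305121 counted reads in BPA, against 10455643 and 7517482 reads in normal cells. The BPA libraries stood apart in coverage: the median gene had 15 and 2 reads in BPA, against 233 and 150 reads in normal cells, and 4086 and 4676 genes in BPA were at 0, against 2877 and 2207 in normal cells. The 9 Leydig markers looked for, among them Star, Cyp11a1 and Insl3, have no row in this table and are not analysed here, so the label could not be checked against them. Of the Sertoli markers 3 of 6 had a row, with a summed level of 266 and 135 CPM (the counts-per-million scale) in BPA, against 155 and 309 in normal cells. Among those Sertoli markers Wt1 and Clu had log2 fold changes of opposite sign (-0.33 and 1.78), and Gata4 was below the filter. The macrophage markers (2 of 4 with a row) also went opposite ways. Cd68 had 20.2 and 81.5 CPM in BPA and 0 and 7.57 CPM in normal cells. Lyz2 had 0.116 and 0 CPM in BPA and 10.9 and 0 CPM in normal cells. Of the endothelial and smooth muscle list only Acta2 had a row, with 57.9 and 237 CPM in BPA and 6.93 and 45.1 CPM in normal cells, and no germ cell marker had one. The part of these markers in the results was not tested.

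Most of the chaperone genes were read deeply in all 4 libraries. Together the 10 genes took 1.73% and 1.82% of the reads in BPA, against 1.68% and 1.304% in normal cells. The median absolute log2 ratio between the replicates, with 1 CPM added, was 0.32 for the members in BPA and 0.43 in normal cells. Over all tested genes it was 1.64 in BPA and 0.83 in normal cells, and over the 1756 genes that averaged 1000 reads or more per library it was 0.80 in BPA and 0.48 in normal cells. All members except Dnajb1 and Bag3 had a mean of at least 1000 reads.

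**Figure D1:**
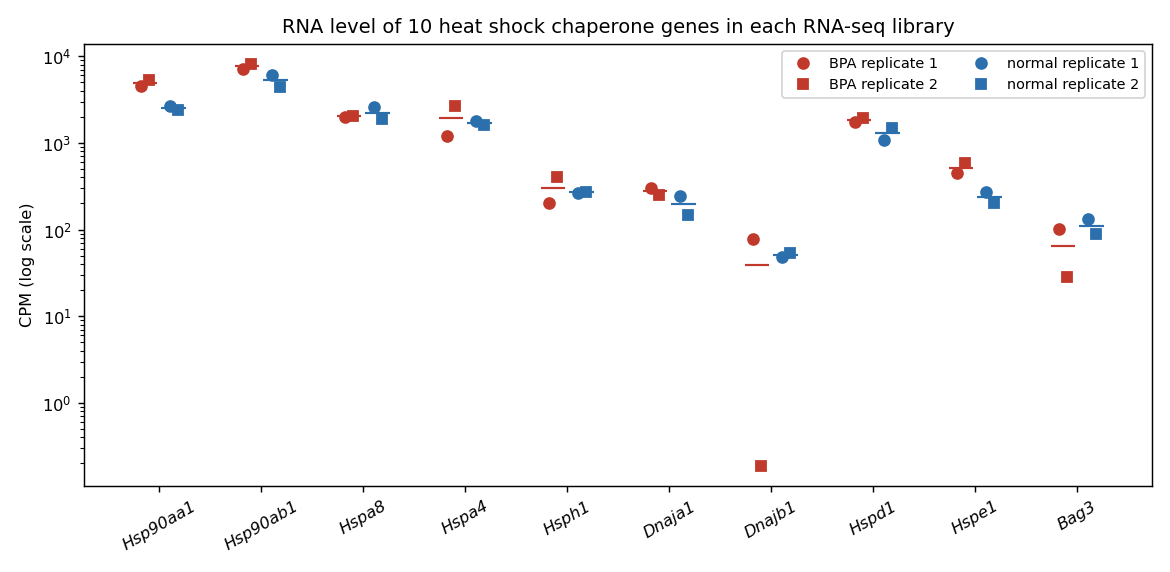
RNA level of the 10 chaperone genes in each RNA-seq library, in CPM on a log axis. Points are libraries (BPA in red on the left, normal in blue on the right, circles replicate 1 and squares replicate 2) and short lines are group means. Hsp90aa1 and Hspe1 lie higher in both BPA libraries, and Dnajb1 replicate 2 of BPA lies at 0.187 CPM, far below the other 3 libraries.

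Of the cytosolic members, the HSP90 pair had the largest positive log2 fold changes. Hsp90aa1 (ENSMUSG00000021270) encodes the stress-inducible cytosolic HSP90, a client-maturing chaperone. It had 4499 and 5391 CPM in BPA and 2677 and 2397 CPM in normal cells. The BPA values both exceeded the normal values. The means were 4945 ± 631 CPM in BPA and 2537 ± 198 CPM in normal cells (SD, n = 2 each), a log2 fold change of 0.96 ± 0.29 (SE). edgeR's quasi-likelihood test gave an unadjusted p of 0.00558, and after Benjamini-Hochberg adjustment over all genes the p was 0.372, which does not pass. DESeq2 called it, with an adjusted p of 0.00627. In bulk RNA, a change in RNA per cell and a change in the mix of cells cannot be told apart.

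Hsp90ab1 (ENSMUSG00000023944) is the constitutive partner of the pair. It had 7153 and 8125 CPM in BPA and 6114 and 4420.3 CPM in normal cells, again without overlap. The log2 fold change was 0.54 ± 0.27 (SE) with an edgeR adjusted p of 0.374, and DESeq2 did not call it either (adjusted p 0.154).

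A ratio of partner genes within a library does not depend on how libraries are scaled. The ratio of Hsp90aa1 to Hsp90ab1 reads was 0.629 and 0.664 in BPA and 0.438 and 0.542 in normal cells, with means of 0.646 ± 0.0244 in BPA and 0.490 ± 0.0738 in normal cells (n = 2 each, SD). The inducible gene thus took a larger share of HSP90 reads in both BPA libraries than in either normal library. With 2 libraries against 2 the smallest two-sided exact permutation p is 0.333, so no single ratio can pass a test here. Of 7 such ratios computed among the members, 5 of which share Hspa8 as denominator, 3 had both BPA values above both normal values.

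The mitochondrial chaperonin genes also had higher CPM in both BPA libraries, and neither passed the test. Hspe1 (ENSMUSG00000073676) encodes HSP10, the lid of the mitochondrial folding chamber. It had 455 and 584 CPM in BPA and 273 and 203 CPM in normal cells. This was the largest log2 fold change of the 10 genes, 1.11 ± 0.54 (SE), with means of 520 ± 91.4 CPM in BPA and 238 ± 49.6 CPM in normal cells (SD, n = 2 each). The groups did not overlap, yet edgeR gave an unadjusted p of 0.0603 and an adjusted p of 0.372, and DESeq2 an adjusted p of 0.296.

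Hspd1 (ENSMUSG00000025980) encodes HSP60, the barrel that HSP10 closes. It had 1749 and 1916 CPM in BPA and 1094 and 1482 CPM in normal cells, without overlap, and a log2 fold change of 0.51 ± 0.36 (SE; edgeR adjusted p 0.584). The ratio of Hspe1 to Hspd1 reads was 0.260 and 0.305 in BPA and 0.250 and 0.137 in normal cells. Replicate 1 of BPA and replicate 1 of normal cells were close to each other here, and normal replicate 2 was the lowest of the 4. Both genes have processed copies in the genome, and how reads that map to several places were counted is unknown here, so their counts are uncertain. The copy Hspd1-ps3 was itself listed with 3895 and 2046 reads in BPA, against 3594 and 3916 in normal cells, and Hspe1-ps2 with 0 and 0 reads in BPA, against 200 and 0 in normal cells.

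**Figure D2:**
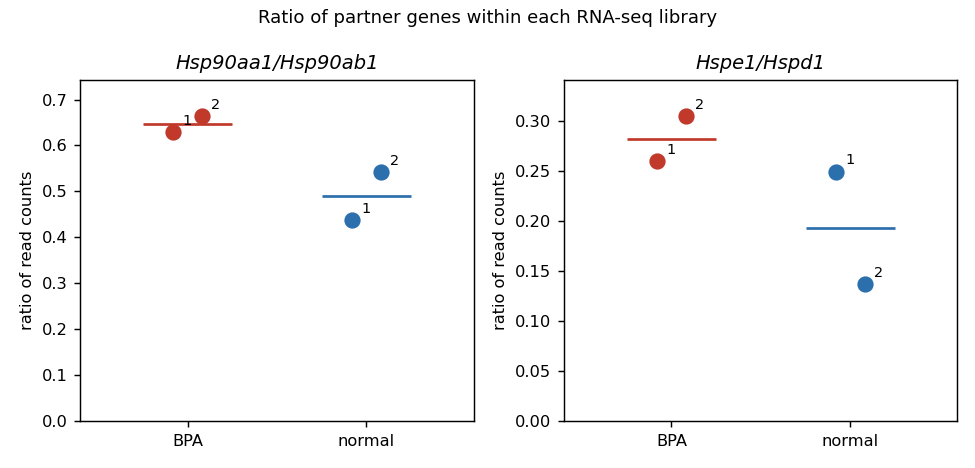
Ratio of read counts of Hsp90aa1 to Hsp90ab1 and of Hspe1 to Hspd1 within each RNA-seq library. Points are libraries, numbered by replicate, and lines are group means. Both BPA points lie above both normal points in each panel, by a narrow margin (0.260 in BPA replicate 1 and 0.250 in normal replicate 1) for Hspe1 to Hspd1.

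Hspd1 and Hspe1 stand head to head on chromosome 1 and share a promoter, which is shown because it joins 2 members that were both higher in both BPA libraries. In RefSeq (GRCm38.p6) one annotated start of Hspd1, on the minus strand, lies 216 bases from the start of Hspe1, on the plus strand. The stretch between those starts, chr1:55087933-55088147, reads as follows on the plus strand. Capitals mark overlapping matches to GAANNTTC or TTCNNGAA, the paired units of a heat shock element.
Hspd1 and Hspe1: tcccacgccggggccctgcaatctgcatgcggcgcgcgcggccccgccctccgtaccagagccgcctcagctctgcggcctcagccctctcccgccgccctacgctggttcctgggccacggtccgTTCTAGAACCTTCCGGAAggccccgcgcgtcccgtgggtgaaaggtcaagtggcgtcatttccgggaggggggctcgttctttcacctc

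The 18 capitals hold 4 alternating units in a row and end 72 bases before the start of Hspe1. Promoter windows of 250 bases before to 50 after a start were found for 7 of the 10 members (12 windows). The paired unit GAANNTTC or TTCNNGAA, each of which reads the same on both strands, occurred in windows of 5 members, and in 15.1% of all 32851 windows. By gene, it occurred in windows of 4587 of 27025 genes. A run of 3 units is GAANNTTC followed by NNGAA or TTCNNGAA followed by NNTTC, and so contains the paired unit. It occurred in windows of 3 members, Hspd1, Hspe1 and Hsph1, with the same stretch counted for Hspd1 and Hspe1. Such a run was found in 0.603% of all windows, and in windows of 179 of 27025 genes. A run of 4 units, in which the same alternation goes on for 1 more unit, occurred in 0.0244% of all windows. The other matches are printed with their neighbouring bases, on the strand of the gene.
Hsph1: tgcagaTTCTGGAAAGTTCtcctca
Hsph1 upstream: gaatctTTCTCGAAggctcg
Dnaja1: cctctaGAAAATTCtacgag
Bag3: ggaccaGAAGTTTC

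These lie at chr5:149636282-149636306 and chr5:149636356-149636375 (minus strand), chr4:40722338-40722357 and chr7:128523619-128523632 in GRCm38.p6. Relative to the same annotated start of Hsph1, its run of 3 units begins 15 bases after and its separate paired unit 54 bases before. The Bag3 match begins 42 bases after an annotated start, and the Dnaja1 match 124 bases before one. A match is a string of letters and says nothing of binding. Of the 5 members with a match, Hspd1, Hspe1 and Dnaja1 had both BPA libraries above both normal ones in CPM, and Hsph1 and Bag3 did not. Hspd1 and Hspe1 share the same stretch. Hspa4 and Dnajb1, whose windows held no match, did not either. No window was found for Hsp90aa1 and Hsp90ab1, which had both BPA libraries above, or for Hspa8, which did not. Both BPA libraries were above in 12.8% of all tested genes and in 28.4% of those averaging 1000 reads or more. A link between a match and the RNA level was not tested.

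Of the HSP70 class, none of the 3 genes separated the groups. Hspa8 (ENSMUSG00000015656) encodes HSC70, the constitutive HSP70 of the cytosol. It had 2010.4 and 2046 CPM in BPA and 2583 and 1891 CPM in normal cells, a log2 fold change of -0.14 ± 0.33 (SE). The BPA libraries lay between the normal ones. Hspa4 (ENSMUSG00000020361) encodes an HSP110-type exchange factor of HSP70. It had 1189 and 2662 CPM in BPA and 1778 and 1616 CPM in normal cells, so that the BPA libraries lay on either side of the normal pair. Hsph1 (ENSMUSG00000029657) encodes the inducible exchange factor HSP105. It had 205 and 404 CPM in BPA and 267 and 270.3 CPM in normal cells, with the same replicate of BPA high and the other low. Their log2 fold changes were 0.17 ± 0.40 for Hspa4 and 0.15 ± 0.61 for Hsph1 (SE). edgeR gave an adjusted p of 0.8997 for both Hspa8 and Hspa4 and of 0.948 for Hsph1. Both turned negative without BPA replicate 2, to -0.47 for Hspa4 and -0.35 for Hsph1.

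The J-domain genes Dnaja1 and Dnajb1 encode the HSP40 partners that deliver clients to HSP70. Dnaja1 (ENSMUSG00000028410) had 303 and 249 CPM in BPA and 244 and 149 CPM in normal cells. The groups did not overlap, by a margin of BPA replicate 2 over normal replicate 1 that was far smaller than the spread within normal cells, and the log2 fold change was 0.48 ± 0.63 (SE; edgeR adjusted p 0.816). Relative to Hspa8, Dnaja1 reads were 0.151 and 0.121 in BPA and 0.0945 and 0.0789 in normal cells. Dnajb1 (ENSMUSG00000005483) had 661 reads in BPA replicate 1 and 1 read in BPA replicate 2, against 554 and 416 reads in normal cells. As CPM these were 76.8 and 0.187 in BPA and 48.0 and 53.3 in normal cells. Its log2 fold change of -0.16 ± 1.29 (SE; edgeR adjusted p 0.975) averaged libraries that differ 411-fold. Without BPA replicate 1 it was -7.91, and without BPA replicate 2 it was 0.65.

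Bag3 (ENSMUSG00000030847) encodes a stress-inducible co-chaperone that links HSP70 to selective autophagy and small heat shock proteins. It had 101 and 28.0 CPM in BPA and 133 and 88.2 CPM in normal cells. One BPA library lay within the normal range and the other below it. The log2 fold change was -0.69 ± 0.98 (SE; edgeR adjusted p 0.836), with the group means at 64.4 ± 51.4 CPM in BPA and 111 ± 31.6 CPM in normal cells (SD, n = 2 each). Among the 10 members it had the most negative value, and without BPA replicate 1 it was -1.96.

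As a group, 7 members had a positive log2 fold change and 3 a negative one, and the median was 0.33 against -0.02 over all 8645 tested genes, of which 49.5% were positive. edgeR called 0 members and 0% of all tested genes at an adjusted p of 0.05. At an unadjusted p under 0.05 there was 1 member, Hsp90aa1, where 9.64% of tested genes passed. It was higher in BPA, as were 2.41% of tested genes at that p, and no member was lower, where 7.23% of tested genes were. DESeq2 called the same 1 member and 3.05% of tested genes. The groups did not overlap for 5 members (Hsp90aa1, Hsp90ab1, Dnaja1, Hspd1 and Hspe1), where 40% of tested genes did not overlap. In all 5 the BPA pair was the higher one, a pattern shown by 12.8% of tested genes, and no member had the BPA pair lower, as 27.2% of tested genes did.

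Well-read genes as a class lay higher in BPA on this scale, which bears on these counts. Of the 1756 genes averaging 1000 reads or more, 28.4% had the BPA pair above the normal pair, 68.5% had a positive log2 fold change, and the median was 0.34. Of the 8 members among them, 5 had the BPA pair above, 7 were positive, and the median was 0.49. At an unadjusted p under 0.05 and higher in BPA there was 1 of those 8 members and 5.64% of those genes. Measured from the median of those genes, the log2 fold change was 0.77 for Hspe1, 0.62 for Hsp90aa1, 0.20 for Hsp90ab1, 0.17 for Hspd1 and 0.14 for Dnaja1, and it was -0.17 for Hspa4, -0.19 for Hsph1 and -0.48 for Hspa8. In a fit of those genes alone 5 of the 8 were positive, with Hspa4 at -0.13 and Hsph1 at -0.13. Hsp90aa1 had an unadjusted p between 4.24e-05 and 0.0427 over the main test and its 10 alternatives, 4 of which leave a condition with 1 library and take the spread from the other condition, and an adjusted p between 0.00627 and 0.995.

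**Figure D3:**
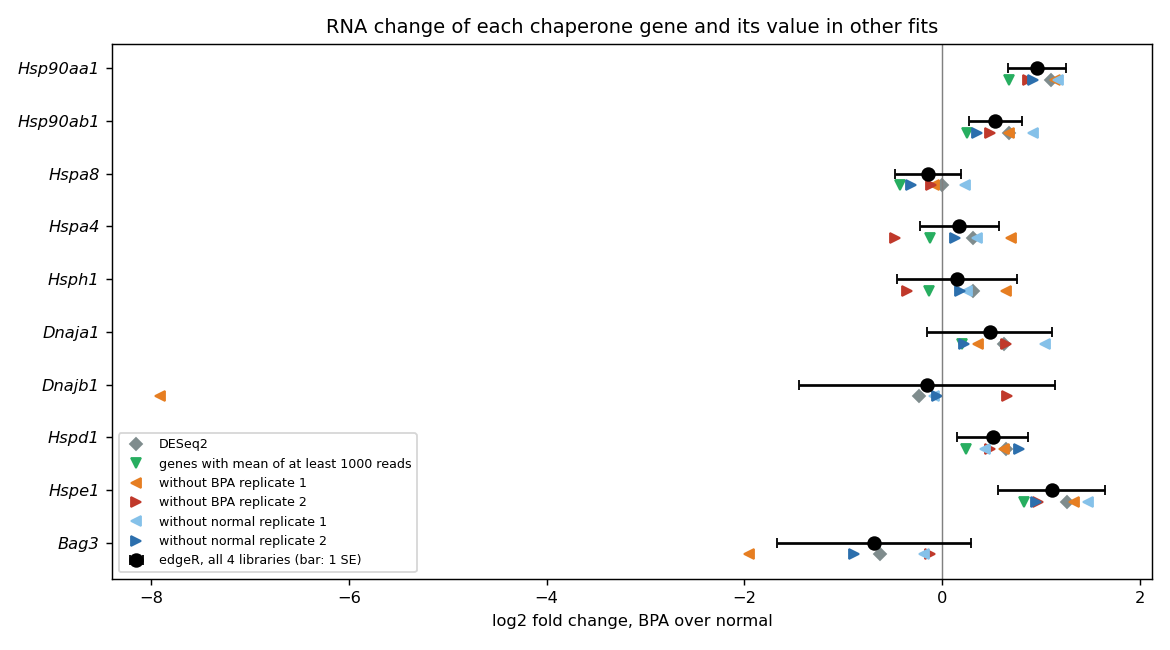
Log2 fold change of each chaperone gene, BPA over normal, with black points and bars for the edgeR estimate and 1 SE and coloured marks for other fits. Hsp90aa1, Hsp90ab1, Dnaja1, Hspd1 and Hspe1 stay right of 0 in every fit drawn, while Dnajb1 moves to -7.91 without BPA replicate 1.

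The wider chaperone network was followed with a list of 69 other chaperone, co-chaperone and heat shock factor genes. Of these, 62 had a row and 60 were tested. Of the tested genes 34 had a positive log2 fold change and 26 a negative one, and the median was 0.12. edgeR called 0 of them, 2 had an unadjusted p under 0.05 (both higher in BPA, Dnaja2 and Vbp1), and DESeq2 called 1. The BPA pair was above the normal pair for 9 of them and below it for 9, where 12.8% of all tested genes were above and 27.2% below.

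The subunits of the cytosolic chaperonin TRiC, which folds actin and tubulin, had 7 of 8 positive values with a median of 0.18. Prefoldin, which hands nascent actin and tubulin to TRiC, had 5 of 6 positive with a median of 0.69. The other J-domain genes had 8 of 11 positive with a median of 0.61, and the HSP90 and HSP70 co-chaperones 7 of 16 with a median of -0.06. Other HSP70 family genes had 1 of 4 positive, BAG-type exchange factors 4 of 6, other mitochondrial chaperone and protease genes 2 of 6, and the small heat shock protein and heat shock factor genes 0 of 3. None of these groups held a gene that edgeR called. Over all tested genes 49.5% were positive, with a median of -0.02. Over those averaging 1000 reads or more 68.5% were positive, with a median of 0.34.

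Dnaja2, a J-domain partner of HSC70, had 4567 and 5711 reads in BPA, against 3195 and 2203 in normal cells, a log2 fold change of 1.50 ± 0.52 (SE; edgeR adjusted p 0.372). Dnajc2, a ribosome-associated J-domain protein, had 2992 and 2047 reads in BPA, against 1886 and 1224 in normal cells. The prefoldin gene Vbp1 had 2076 and 1697 reads in BPA, against 490 and 1081 in normal cells. St13, which encodes the HSP70-interacting protein HIP, had 5058 and 8316 reads in BPA, against 6985 and 4863 in normal cells, and its groups overlapped as CPM. Dnajc19, of the mitochondrial inner membrane, had 2 and 550 reads in BPA, against 13 and 8 in normal cells, so that 1 library carried its log2 fold change of 5.27. The edgeR adjusted p of the other 4 genes just named lay between 0.372 and 0.512.

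The next 2 genes had few reads in BPA, and neither passed the test. Cryab, the small heat shock protein alpha-B crystallin, had 1 and 1 reads in BPA, against 293 and 59 in normal cells, a pooled ratio of BPA to normal of 0.00787 with an exact 95% interval of 0.000950 to 0.0287 (edgeR adjusted p 0.372). Bag2, an exchange factor that inhibits the CHIP ubiquitin ligase, had 2 and 1 reads in BPA, against 372 and 13 in normal cells, a ratio of 0.0108 with an interval of 0.00222 to 0.0318 (edgeR adjusted p 0.385). Most normal Bag2 reads were from replicate 1: its log2 fold change was -6.40 with all 4 libraries and -2.72 without normal replicate 1. These intervals cover counting error and leave out the spread between libraries. Low BPA counts were common: 788 of the 8645 tested genes had 0 reads in both BPA libraries. The BPA pair was below the normal pair in 27.2% of tested genes, as it was for Cryab and Bag2. The heat shock factor gene Hsf1 had 0 and 57 reads in BPA, against 193 and 148 in normal cells, and Hsf2 had 6 and 1044 in BPA, against 666 and 1482 in normal cells. As CPM the Hsf2 groups overlapped, and BPA replicate 2, at 195 CPM, was the highest of the 4 libraries. The inducible HSP70 gene Hspa1b had 0 and 0 reads in BPA, against 0 and 45 in normal cells and was not tested, and Hspa1a and Hspb1 are not analysed here.

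**Figure D4:**
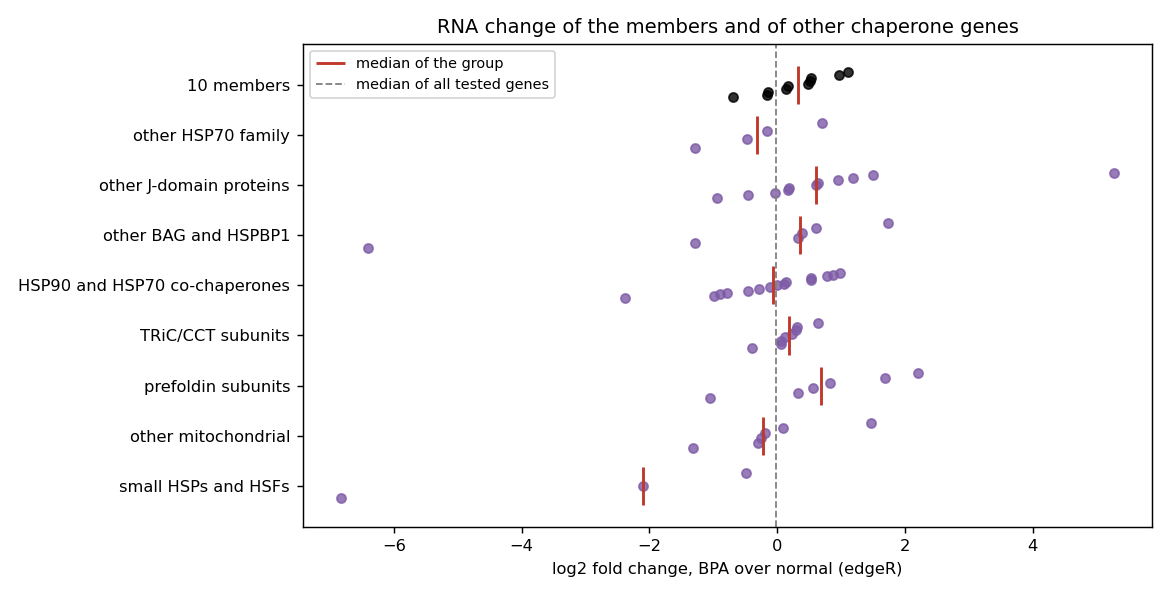
Log2 fold change, BPA over normal, of the 10 members and of other tested chaperone genes by family. Points are genes (1 gene of the list is not drawn), red lines are the medians of all tested genes of a family and the dashed line is the median of all tested genes (-0.02). Members spread from -0.69 to 1.11, the other chaperones drawn from -6.82 to 5.27.

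The m6A data asked whether the antibody recovered different parts of these mRNAs in BPA and normal cells. The peak table gives 1 pooled value per condition for the immunoprecipitate (IP) and for the input, on the reads-per-million scale (RPM), so there is no spread between libraries and no test of replicates. The table lists differential peaks: all 3331 (100%) had a false discovery rate under 0.05 in the authors' deposited table, and so had the 15 peaks of the members, which says nothing particular about them. In 10 of the 15 member peaks every pooled column held at least 100 reads, against 30.5% of all peaks. At least 1 column held under 10 reads in 4 of the 15, against 58.0% of all peaks.

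From the RPM values, IP over input was higher in BPA in 8 member peaks and lower in 7, where 65.1% of all peaks were higher. The IP was above the input in 6 of the 15 in BPA, where 62.5% of all peaks were. In normal cells it was above the input in 4 of the 15, where 47.7% of all peaks were. Over all listed peaks the RPM summed to 877723 (IP) and 894159 (input) in BPA. In normal cells they summed to 826089 (IP) and 884773 (input). IP and input were thus scaled to similar sums over these peaks, so an IP below its input cannot show a lack of enrichment. The IP itself was higher in BPA in 5 of the 15, where 54.2% of all peaks were, and the input was lower in BPA in 8, where 61.3% of all peaks were. The authors' deposited table gives 9 of the 15 a positive log2 fold change, against 68.8% of all peaks. Its values lay 0.78 above the log2 ratio of the RPM ratios over the 1016 peaks whose columns all held 100 reads or more, and the third Hsp90ab1 peak, at 0.40 in the authors' deposited table and -0.38 from the RPM values, differs in sign by that offset. Below, peaks are numbered from the 5′ end of the gene, log2 values are from RPM with 1 added, and coordinates follow the files, whose build was read as GRCm39. Where peaks lie within exons, introns or untranslated regions is not analysed here.

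Hsp90aa1 had 1 peak, in 2 blocks at chr12:110661042-110661538, with 984 RPM in the IP and 1111 in the input in BPA and 1143 in the IP and 1560.1 in the input in normal cells. From the RPM values, the log2 change of IP over input was 0.27, whereas the authors' deposited log2 fold change for this peak was 1.05. The input of that peak was lower in BPA, by a log2 change of -0.49, whereas the read count of the whole gene had a log2 fold change of 0.96. The first value is from pooled RPM at the peak and the second from scaled counts of the whole gene. Their scales differ, so they cannot be compared directly.

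Hsp90ab1 had 4 peaks with both directions among them. In the first, at chr17:45882466-45882490, the IP had 33.8 RPM in BPA and 459 RPM in normal cells, the input had 233 RPM in BPA and 495 RPM in normal cells, and the log2 change of IP over input was -2.64. In the last, at chr17:45878701-45878850, the IP had 451 RPM in BPA and 221 RPM in normal cells, the input had 273 RPM in BPA and 484 RPM in normal cells, and the log2 change was 1.85. The peaks between them had 0.98 and -0.38. Input RPM was lower in BPA at all 4 peaks.

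Hspa8 had 2 peaks with changes of opposite sign within 1 mRNA. The first, at chr9:40714395-40714419, was listed at 0 RPM in the IP in BPA and 405 RPM in normal cells, but its input also had only 4.89 RPM (4 reads) in BPA against 535 RPM in normal cells. Its log2 change was -2.16 with 1 RPM added and -0.18 with 10 RPM added. The gene itself had 17300 and 10950 reads in BPA, against 29806 and 14747 reads in normal cells. The second, at chr9:40715020-40715044, had 453 RPM in the IP in BPA and 12.96 RPM in normal cells. Its input was 216 RPM in BPA and 195 RPM in normal cells, and the log2 change was 4.88, the largest among the member peaks with no column under 10 reads.

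Hspd1 had 4 peaks, of which 3 had higher IP over input in BPA. The first, at chr1:55119376-55119425, had 365 RPM in the IP in BPA and 565 RPM in normal cells, while its input had 1298 RPM in BPA and 305 RPM in normal cells, giving a log2 change of -2.72. Peaks 3 and 4, at chr1:55117544-55117568 and chr1:55117344-55117368, had 492 and 365 RPM in the IP in BPA, against 54.8 and 62.8 RPM in normal cells, with log2 changes of 1.96 and 1.64. In the second the input had 3.67 RPM (3 reads) in BPA against 197 RPM in normal cells, while the IP had 182 RPM in BPA and 193 RPM in normal cells. Its log2 change of 5.33 (3.85 with 10 RPM added) rests on those 3 reads.

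Hspa4 had 1 peak, at chr11:53157888-53157937, with 1041 RPM in the IP and 229 in the input in BPA and 418 in the IP and 1067 in the input in normal cells. The log2 change of IP over input was 3.53, with a log2 change of 1.31 in the IP alone and of -2.22 in the input alone. Hsph1 had 1 peak, at chr5:149540588-149540737, with 234 RPM in the IP and 394 in the input in BPA and 429 in the IP and 249 in the input in normal cells, a log2 change of -1.53. The 2 exchange factor genes thus had changes of opposite sign.

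Dnaja1 and Bag3 each had a single narrow peak that was nearly absent from the BPA IP. At Dnaja1 (chr4:40730231-40730255) the IP had 0.26 RPM (1 read) in BPA and 370.0 RPM (1999 reads) in normal cells, while the input had 495 RPM in BPA and 205 RPM in normal cells. The log2 change was -9.47 with 1 RPM added and -6.44 with 10 RPM added. At Bag3 (chr7:128148469-128148493) the IP was listed at 0 RPM in BPA and 166 RPM in normal cells, but the input had only 2.44 RPM (2 reads) in BPA and was listed at 0 in normal cells. With so little input in both conditions, the ratio of IP over input says little for Bag3.

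**Figure D5:**
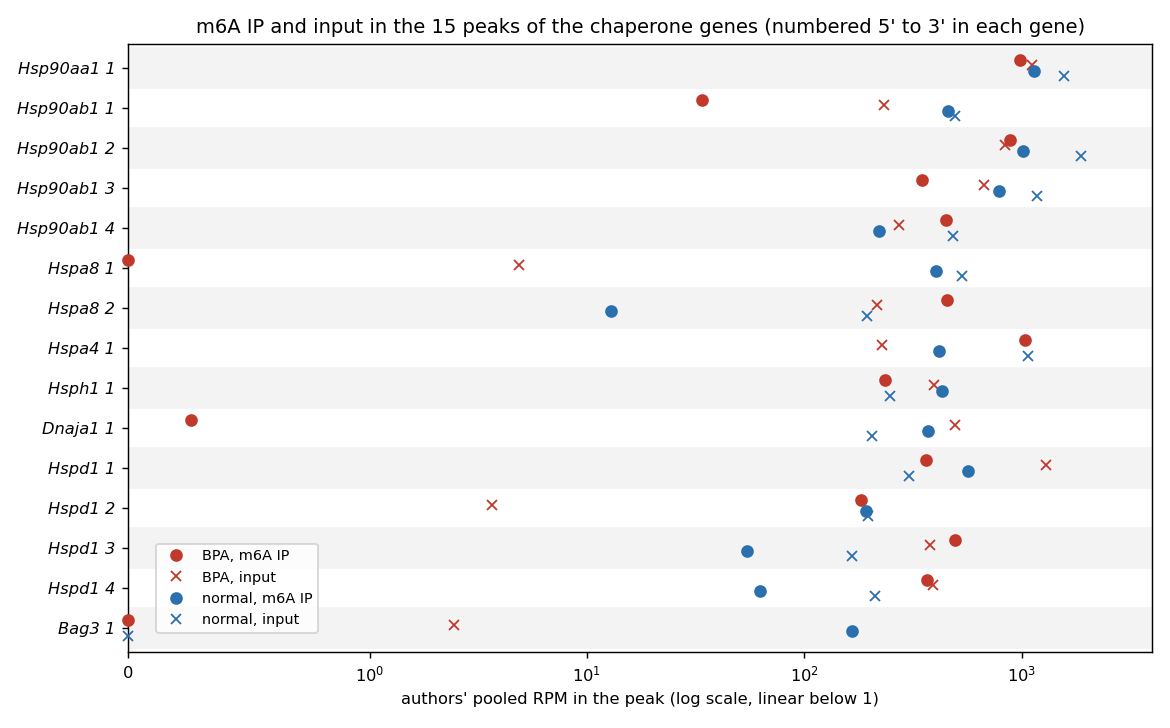
Authors' pooled RPM of the m6A IP (circles) and input (crosses) in the 15 peaks of the chaperone genes, BPA in red and normal in blue, on an axis that is linear below 1 RPM and logarithmic above. The Dnaja1 peak has IP near 0 in BPA at an input of 495 RPM, and the first Hspa8 peak has both IP and input near 0 in BPA.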

How the data were processed

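TM3 RNA-seq and MeRIP-seq were analysed from 2 deposited tables. The read counts per gene were deposited by the authors, and the submitters' processing notes name fastp (0.20.1), HISAT2 (2.2.1), featureCounts (2.0.1), DESeq2 (1.38.3) and the builds GRCm39 and GRCh38 with no role. Handling of strand and of reads mapping to several places was, like the peak caller and peak test, not given in the sources used here. Per the file headers, the 4 count columns show condition and replicate number and not the assay, and featureCounts and DESeq2 in those notes led to reading them as RNA-seq. Symbols were found for 12271 of 12404 gene IDs (98.9%).

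Peak RPM, pooled over replicates, were deposited by the authors, as were each peak's log2 fold change, p-value and false discovery rate. RPM were whole multiples of a step in 100% of peaks (within 0.1 read), with totals of 3908372 (BPA IP), 818212 (BPA input), 5402182 (normal IP) and 1703692 (normal input), which gave the reads per peak. Only 11.3% of 3176 peaks fell within their gene's GRCm38 span, so GRCm39 was taken as the build.

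Counts were tested with edgeR 4.0.16 (R 4.3.3; TMM, filterByExpr with minimum count 10 and total 15, robust quasi-likelihood without the legacy option, Benjamini-Hochberg over 8645 genes). SE come from the F statistic, CPM use TMM-scaled sizes, and DESeq2 1.42.0 was an alternative. Exact 95% intervals account for counting error only (no molecular identifiers, so reads are not independent molecules). Promoters are RefSeq sequences of GRCm38.p6. Named genes were all members, the 8 other chaperone genes with the smallest p and those with a peak, of which 1 is not reported here. Hsf1 and Hspa1b were added after their values were seen, and Hspa1a and Hspb1, with no row, were added as names only. The members and lists were chosen with earlier results of these data known.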

Additional observations from a re-analysis of the deposited data

How the results depend on the processing

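Counts of calls at an adjusted p of 0.05 depended on the tool. DESeq2 called 264 of all tested genes, 1 member (Hsp90aa1, log2 fold change 1.10) and 1 other chaperone gene, where edgeR called 0 of each. Leaving out each library in turn, where the lone library is assumed to vary like the other condition's, gave 0 to 1 calls over all genes, 0 to 0 members and 0 to 0 other chaperones. With edgeR's legacy quasi-likelihood, added after the data were seen, 1212 genes had an unadjusted p under 0.05 in place of 833, still with 0 calls. DESeq2's size factors raised the median of all log2 fold changes by 0.14, and the split at an unadjusted p under 0.05 became 328 higher and 429 lower, from 208 and 625. Signs turned in the fit of abundant genes for Hspa4 (-0.13), Hsph1 (-0.13) and the median of other chaperones (-0.016). Leaving out 1 library at a time also turned signs, without normal replicate 1 for Hspa8 (range -0.32 to 0.23) and without BPA replicate 2 for Hspa4 (-0.47 to 0.70), Hsph1 (-0.35 to 0.64), Dnajb1 (-7.91 to 0.65), Dnajc19 (-2.12 to 6.60), St13 (-0.023 to 1.39) and that median (-0.031 to 0.25). The cause was not tested. The replicate block gave 0 calls and 216 genes at an unadjusted p under 0.05. Deviations of same-numbered libraries had a correlation of 0.004 across genes. Such a correlation cannot settle whether same-numbered libraries shared a culture or day, which the labels do not state. All 15 member peaks kept a false discovery rate under 0.01, and 8 were higher in BPA with 10 RPM added as with 1. Peaks with under 10 reads in a column limit what their ratios can show.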

Other observations

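Other genes of the chaperone network also had peaks in the deposited table, 48 peaks in 27 of the 69 listed genes. These genes were Hsf2, Hspa9, Dnaja2, Dnajb2, Dnajc2, Dnajc7, Dnajc8, Dnajc9, Dnajc21, Bag4, Stip1, St13, Ahsa1, Unc45a, Chordc1, Tomm70a, Lonp1, Tcp1, Cct3, Cct4, Cct5, Cct7, Cct8, Pfdn1, Pfdn2, Vbp1 and Pfdn6. From the RPM values IP over input was higher in BPA in 33 of the 48 and lower in 15 (68.8% higher, against 65.1% of all peaks). The 2 St13 peaks lie at different places but have identical values in every pooled column, and both are counted among the 33. At least 1 pooled column held under 10 reads in 20 of them.

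The third of 5 peaks of Cct5, a TRiC subunit gene, had 0.26 RPM in the IP and 804 RPM in the input in BPA, against 863 RPM in the IP and 581 RPM in the input in normal cells. It shares with the Dnaja1 peak a BPA IP near 0 at well-read BPA input. Its neighbours had log2 changes of IP over input of 1.32 on the 5′ side and -1.35 on the 3′ side. Stip1, which encodes the HOP adaptor between HSP70 and HSP90, had 4 peaks with log2 changes of -0.25, 6.09, 3.76 and -1.38, the second at 3.67 RPM in the BPA input. The Dnaja2 peak had 1118 RPM in the IP and 3161 in the input in BPA, against 1416 in the IP and 897 in the input in normal cells, a log2 change of -2.16. These peaks were chosen after their values were seen.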
